A study of Sus scrofa with 12 samples.

Results

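The genes described here encode the enzymes and receptors that handle foreign compounds in the piglet jejunum. They were chosen by name. A gene belonged to the set where its name began with CYP and a digit (cytochromes P450), UGT (UDP-glucuronosyltransferases), GST (glutathione S-transferases), SULT (sulfotransferases) or AKR1 (aldo-keto reductases), or was AHR, AHRR, NR1I2, NR1I3, POR or EPHX1. The name rule found 41 genes at 55 loci, and 27 of them reached a mean of 0.5 FPKM (a fragment count scaled to exon length and to the library's mapped fragments) over all 12 libraries. These 27 are members of the 12886 gene names that were tested, out of 17049 in the table. Just inside the limit were SULT1C2 with a mean of 0.630 FPKM and SULT2B1 with 0.634 FPKM, and just outside it were CYP24A1 with 0.321 FPKM and CYP1A2 with 0.240 FPKM. The other 12 names below the limit had means from 0.00170 to 0.234 FPKM. No row carried the name AHRR, POR, CYP1B1 or a CYP3A or UGT1A name, and these were not analysed here.

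Phase I enzymes, chiefly the cytochromes P450, oxidise, reduce or hydrolyse drugs, plant compounds and steroids, and phase II enzymes attach glucuronic acid, sulfate or glutathione to the products so that they can be excreted. Ligand-activated receptors set the level of many of these enzymes. AHR, the aryl hydrocarbon receptor, drives CYP1A1, while NR1I2 (the pregnane X receptor, PXR) and NR1I3 (the constitutive androstane receptor, CAR) drive genes of the CYP2B, CYP2C and CYP3A families. The small intestine is the first tissue that meets compounds in feed, and resveratrol, a plant polyphenol, is conjugated by glucuronosyltransferases and sulfotransferases on its way through the gut wall.

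RNA-seq of jejunum was compared between 4 groups of 3 piglets, which the records call biological replicates. W_Con piglets were taken on the weaning day at 21 days of age, from sows on a corn-soybean diet, and PW_Con piglets were 28 days old, 7 days after weaning, from sows on that diet. W_Res and PW_Res piglets had the same ages, and their sows ate the diet with 300 mg/kg resveratrol from day 20 after breeding until the end of lactation. The supplement was fed to the sow, so that the piglet met it only through her, and piglets were cross-fostered within a diet. All sows were bred to pooled Landrace semen, and the litters stayed in the nursing pens for the week after weaning. The study's own methods describe a comparison of sucking and weaned piglets only, in male Yorkshire × Duroc pigs moved to a nursing room, and the 2 sources were not reconciled. The weaning effect (28 minus 21 days) also holds 7 days of growth, and the 2 cannot be told apart. Neither source gives the sow or litter of a library.

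The libraries differed in ways that cut across the groups. All carried enterocyte transcripts, with VIL1, a brush border protein, at 296 to 1062 FPKM. FABP6, the bile acid-binding protein of the ileum, ran from 1.70 to 24110 FPKM, so that the tissue label was not uniform in these markers, while HOXB13, a hindgut gene, was at 0 in 11 libraries and at 0.0112 FPKM in 1. A score for position along the gut was taken as the mean z-score of 8 distal markers minus that of 6 proximal markers, which were the ones tested of lists of 9 and 8. It was 1.42, 0.75 and -2.36 in W_Con, 1.63, 1.13 and 1.26 in PW_Con, -0.03, -2.46 and 0.66 in W_Res, and 0.38, -0.89 and -1.49 in PW_Res. The distal markers summed to 207 to 8803 FPKM in W_Con, 7115 to 10527 in PW_Con, 212 to 7560 in W_Res and 344 to 25368 in PW_Res, and the proximal markers to 134 to 281, 134 to 176, 172 to 246 and 187 to 312 FPKM. The 5 smooth muscle markers summed to 644 to 3855 FPKM in W_Res and to 148 to 621 FPKM in the other 3 groups. Hepatocyte markers (8 found of 10) summed to at most 7.74 FPKM, with ALB at 2.01 FPKM or less and AHSG and TTR at 0 in all control libraries. Pancreatic acinar markers (4 found of 8) summed to at most 4.55 FPKM. The 11 villus enterocyte markers found of 12 summed to 8850 to 21324 FPKM in W_Con, 4449 to 10489 in PW_Con, 6953 to 11713 in W_Res and 7781 to 11617 in PW_Res. Of these 11, 8 were lower over weaning in control litters (4 past the standard described below, median log2 fold change -0.57), and 10 were lower with resveratrol at 21 days (2 past it, median -0.76). The 8 lymphocyte markers summed to 242 to 288, 220 to 366, 214 to 279 and 194 to 249 FPKM in the same order. With resveratrol averaged over both ages 7 of the 8 were lower (3 past the standard, median -0.58). The part of these marker shifts in the results was not tested, other than by the fits with the position or smooth muscle score. The distal markers include FABP6, NR1H4, SLC51A and SLC10A2, bile acid genes that the study reports as raised in weaned piglets. All 8 distal markers were higher over weaning in control litters, and all 8 were lower with resveratrol at 28 days. The score may thus hold part of the effects under test, and a fit with it as a covariate may remove that part. In bulk tissue, fewer cells of a type and less RNA per cell cannot be told apart.

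The 27 genes together made up 645 to 1643 FPKM of a library, or 0.203% to 0.507% of its summed FPKM. The highest sums were in PW_Res replicate 3 and W_Con replicate 3, at 1643 and 1591 FPKM, and in both libraries GSTO1 alone gave 733 and 859 FPKM. FPKM is scaled to gene length, so that levels can be set side by side. In mean FPKM over the 12 libraries the order began with GSTO1 (311), GSTP1 (271), EPHX1 (66.7), NR1I2 (53.2), UGT2A3 (49.4), GSTK1 (46.2), CYP2D25 (44.6), CYP51A1 (42.8) and AKR1B1 (26.7). GSTO1 and GSTP1 did not differ beyond their spread, since GSTO1 ranged from 86.5 to 859 FPKM and GSTP1 from 197 to 402 FPKM. The ranges of the 7 genes after them overlapped from each to the next. The remaining 18 genes had means from 0.630 to 11.3 FPKM. Where a name stood for several loci (CYP2B6, CYP2F1 and CYP26B1 with 3 each, and NR1I2, CYP2D25, CYP2W1, CYP51A1 and SULT4A1 with 2 each), their FPKM was summed. Reads of near-identical members of the CYP2 and SULT1 families may have been divided between loci by the authors' assembly, and those levels are uncertain to that extent.

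**Figure D1:**
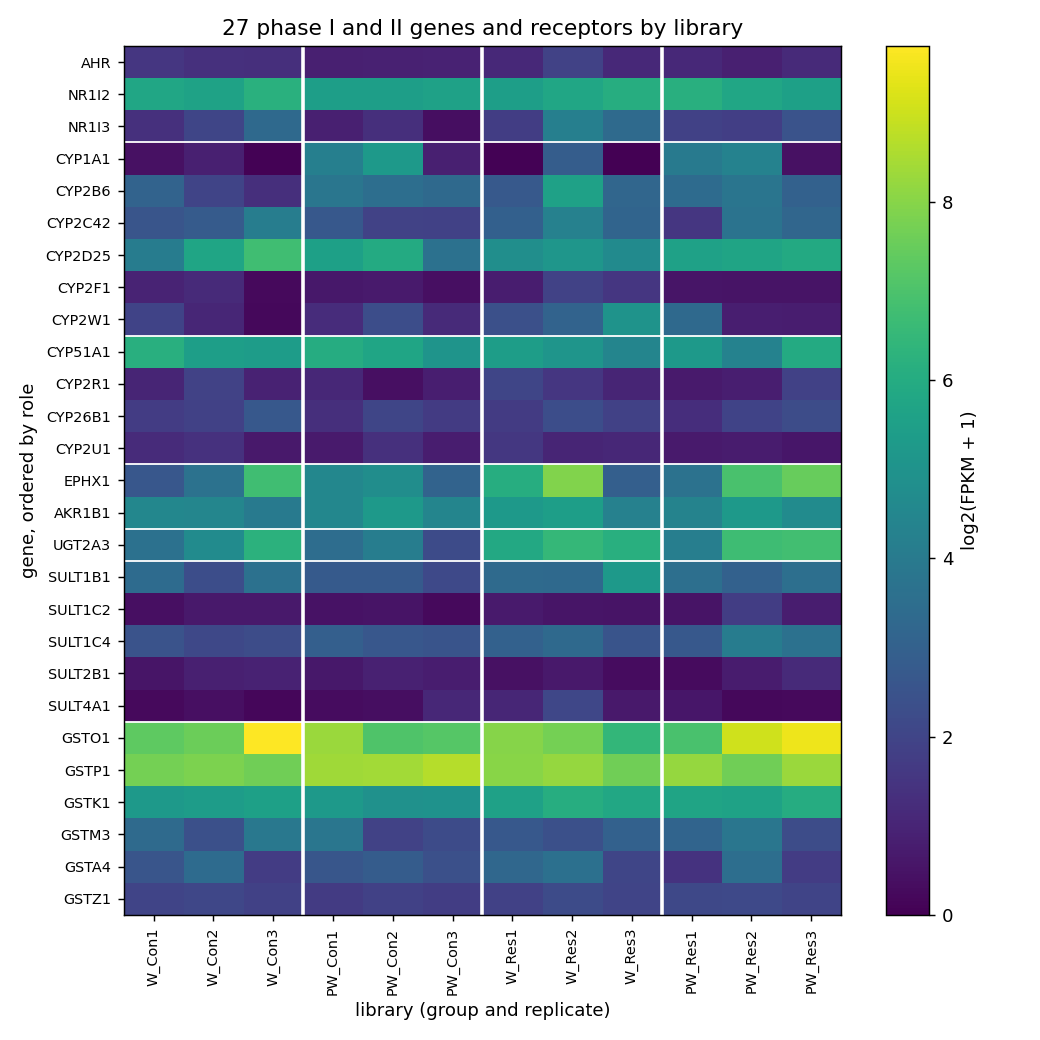
Levels of the 27 genes, as log2(FPKM + 1) by colour, in each of the 12 libraries (columns, by group and replicate), with genes in rows ordered by role. GSTO1 and GSTP1 are bright in every library, and CYP1A1 is near 0 in the 21-day libraries other than W_Res replicate 2 (6.33 FPKM).

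Differences were tested with limma on log2(FPKM + 1) across all 12886 genes, and a gene was called where the unadjusted P was under 0.05 and the log2 fold change was above 1 or below -1, the standard of the study. In control litters 3 of the 27 genes (11.1%) passed this standard over weaning, against 3.10% of all genes tested. In resveratrol litters 1 of 27 (3.70%) passed, against 4.94% of all genes. For the weaning effect averaged over both litter sets it was 2 of 27 (7.41%), against 1.42%. Villus markers were also lower over weaning in control litters (8 of 11). For maternal resveratrol it was 2 of 27 (7.41%) at 21 days, against 4.77%, and 1 of 27 (3.70%) at 28 days, against 1.55%. Averaged over both ages it was 3 of 27 (11.1%), against 0.939%. For the difference of the weaning effect between litter sets it was 1 of 27 (3.70%), against 7.76%. The members' share was thus above the background in 5 comparisons and below it in the weaning effect of resveratrol litters and in the difference between litter sets, each time on 1 to 3 genes. In none of the 7 comparisons did a member reach an adjusted p under 0.05 in limma, where 0, 0, 0.0776%, 0.0466%, 0, 0.140% and 0 of all genes did. In the same order 5, 3, 5, 4, 3, 6 and 1 members had an unadjusted P under 0.05. Those members made up 18.5%, 11.1%, 18.5%, 14.8%, 11.1%, 22.2% and 3.70% of the 27, against 15.3%, 17.6%, 19.0%, 18.5%, 7.76%, 12.3% and 13.7% of all genes. SULT4A1 reached the 0.5 FPKM limit through W_Res, where it is high, and is the 1 member past the standard in the difference between litter sets. Its P was under 0.05 there, over weaning in resveratrol litters and with resveratrol at 21 days, and it is no support in those counts. Comparisons that use the same libraries are not independent of each other.

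Among the receptors, none of the 3 was higher after weaning in control litters, where 48.4% of all genes were. NR1I3 was the one past the standard, which 3.10% of all genes passed. AHR stood at 1.90, 1.57 and 1.51 FPKM in W_Con and at 0.832, 0.838 and 0.912 FPKM in PW_Con. In resveratrol litters it was 1.17, 2.82 and 1.17 FPKM at 21 days and 1.16, 0.810 and 1.25 FPKM at 28 days. All 3 PW_Con libraries lay below all 3 W_Con libraries, while the resveratrol groups overlapped. The log2 fold change over weaning was -0.51 ± 0.23 (SE) in control litters, with adjusted p = 0.325 in limma, and its unadjusted P was under 0.05. Averaged over both litter sets it was -0.43 ± 0.16, with adjusted p = 0.213 in limma. That value was -0.24 under quantile normalization and -0.32 with the smooth muscle score as a covariate, over the P limit in both. AHR lay inside the fold limit, and in each of the 6 fits that left out 1 library of the control groups P was above the limit. With the position score as a covariate the control estimate was -0.41, over the P limit in limma.

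NR1I2, which senses bile acids, steroids and drugs, was the most abundant of the receptors. Its level was 53.1, 47.9 and 71.6 FPKM in W_Con, 43.6, 42.9 and 47.0 in PW_Con, 43.1, 53.3 and 65.9 in W_Res, and 70.3, 54.2 and 46.0 in PW_Res. The W_Con libraries all lay above the PW_Con libraries, by a narrow margin (47.9 against 47.0 FPKM). The fold change in control litters was -0.34 ± 0.22 on the log2 scale, with adjusted p = 0.512 in limma, and the other comparisons gave values from -0.14 to 0.41.

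NR1I3 varied most of the receptors. It was 1.58, 3.10 and 9.17 FPKM in W_Con, 0.831, 1.51 and 0.292 in PW_Con, 2.42, 17.5 and 9.37 in W_Res, and 2.65, 2.53 and 4.63 in PW_Res. The PW_Con libraries lay below every library of the other 3 groups. Over weaning NR1I3 fell by 1.39 ± 0.60 on the log2 scale in control litters, with adjusted p = 0.301 in limma, and by 1.23 ± 0.42 averaged over both litter sets, with adjusted p = 0.175 in limma. With maternal resveratrol it rose by 1.04 ± 0.42 averaged over both ages, with adjusted p = 0.378 in limma. The difference of the weaning effect between litter sets was 0.33 ± 0.85, with adjusted p = 0.886 in limma.

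NR1I3 followed single libraries and the position score. Without W_Con replicate 3 the fall in control litters was -0.84, and it also missed the P limit without W_Con replicate 2 (-1.50), PW_Con replicate 1 (-1.40) or PW_Con replicate 3 (-1.15). The same limit was missed under quantile normalization (-1.34), with the smooth muscle score as a covariate (-1.31) and without a filter (-1.39). The average fall was -0.95 without W_Con replicate 3 and -0.95 without W_Res replicate 2, inside the fold limit in both cases. The rise with resveratrol missed the standard in 7 of the 12 fits that left out 1 library, with values from 0.76 (without W_Res replicate 2) to 1.37 over the 12. These 7 left out W_Con replicate 1 or 2, W_Res replicate 2 or 3, PW_Con replicate 1 or 3, or PW_Res replicate 3. With the position score as a covariate the limma values were -0.75 for weaning in control litters, -0.92 for both litter sets and 0.46 for resveratrol, of which -0.92 kept the P limit but lay inside the fold limit, and the others missed both.

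**Figure D2:**
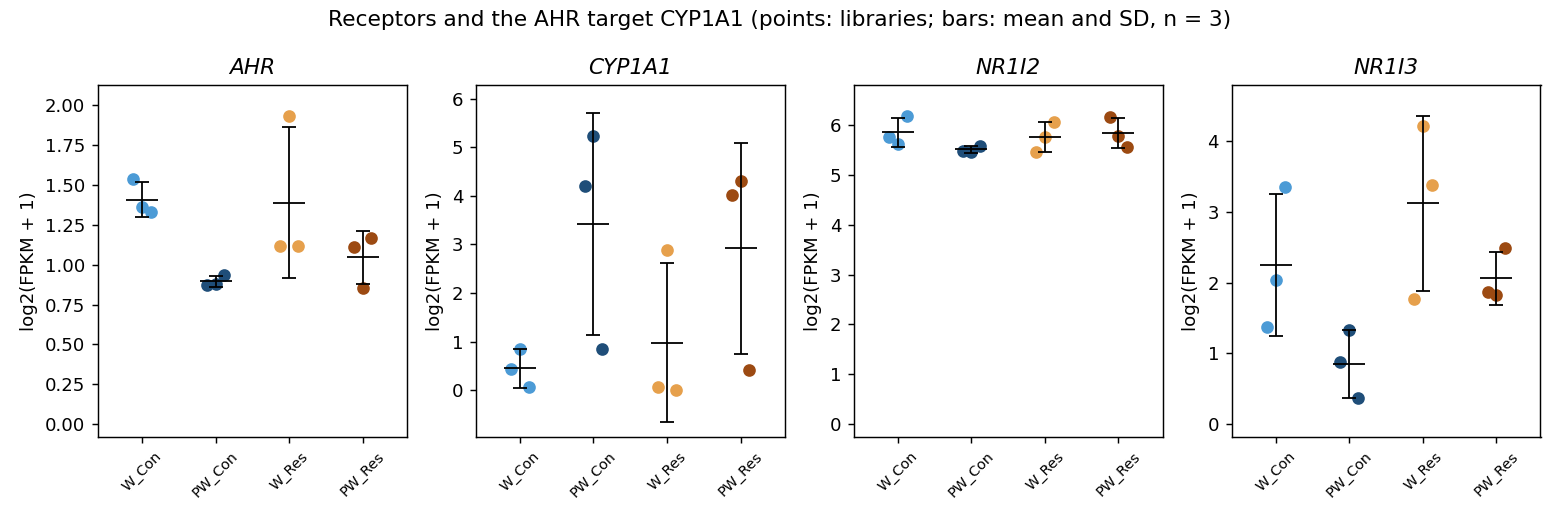
Levels of the 3 receptors and of the AHR target CYP1A1 on the log2(FPKM + 1) scale in the 4 groups, with a point per library and bars for the mean and SD of 3 libraries. The PW_Con points of AHR and NR1I3 lie below all W_Con points, and in CYP1A1 each 28-day group has 1 low point (0.795 and 0.337 FPKM) beside 2 high ones.

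CYP1A1, the AHR target that oxidises polycyclic aromatic compounds, gave the largest weaning effect of the 27 genes. It was 0.343, 0.809 and 0.0457 FPKM in W_Con and 17.3, 36.3 and 0.795 FPKM in PW_Con. In resveratrol litters it was 0.0471 and 6.33 FPKM and listed at 0 in W_Res, and 15.2, 18.8 and 0.337 FPKM in PW_Res. In each 28-day group 2 libraries were at 15.2 FPKM or more and replicate 3 lay within the range of the 21-day libraries, so that the groups overlapped in both litter sets. CYP1A1 rose over weaning by 2.97 ± 1.23 on the log2(FPKM + 1) scale in control litters, a 7.84-fold change on that scale, with adjusted p = 0.283 in limma. Averaged over both litter sets it rose by 2.45 ± 0.87, with adjusted p = 0.185 in limma. In resveratrol litters alone the value was 1.93 ± 1.23, with adjusted p = 0.437 in limma, and the difference between litter sets was -1.04 ± 1.73, with adjusted p = 0.819. The value in resveratrol litters ranged from 1.24 to 3.18 with 1 library left out, and met the standard without W_Res replicate 2 (2.88), without PW_Res replicate 3 (3.18) and with the smooth muscle score as a covariate (4.18). At a pseudocount of 0.1 the value was 4.41 in control litters, 3.46 in resveratrol litters and 3.94 in the average.

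The averaged rise of CYP1A1 kept the standard in each of the 12 fits that left out 1 library, with values from 2.00 to 3.10. In control litters it lost the P limit without W_Con replicate 1 (2.96), W_Con replicate 3 (2.78), PW_Con replicate 1 (2.58) or PW_Con replicate 2 (2.07). The position score did not run with it. The correlation over the 12 libraries was r = 0.15 (P = 0.631, permutation test) and rho = 0.25 (P = 0.429, permutation test), and with the score as a covariate the averaged rise was 2.50 and kept the standard in limma. Maternal resveratrol gave 0.01 ± 0.87 for CYP1A1 averaged over both ages, with adjusted p = 0.995 in limma. CYP1A2, the other CYP1A gene, stayed under the limit, with at most 0.783 FPKM in a library.

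Of the 8 listed AHR partners and other AHR targets 5 were tested. None of the 5 passed the standard over weaning in control litters, in resveratrol litters or in their average, where 3.10%, 4.94% and 1.42% of all genes did, so that a count of 0 in 5 was near the background. A difference from CYP1A1 was not tested. PTGES3, the co-chaperone p23 of the AHR complex, was 11.0, 7.49 and 8.90 FPKM in W_Con and 18.7, 10.7 and 14.2 FPKM in PW_Con. Its value in control litters was 0.60 ± 0.27, under the P limit but inside the fold limit, with adjusted p = 0.323 in limma. TIPARP, an AHR target that feeds back on the receptor, stood between 22.9 and 40.7 FPKM in all 12 libraries, and its averaged weaning effect was 0.07 ± 0.15, with adjusted p = 0.823 in limma. NQO1, a quinone reductase driven by AHR and by NRF2, had an averaged weaning effect of -0.15 ± 0.47, with adjusted p = 0.886 in limma. It passed the standard for maternal resveratrol averaged over both ages, at 1.12 ± 0.47 with adjusted p = 0.378 in limma. Its libraries were at 3.04, 5.10 and 5.99 FPKM in W_Con, 8.91, 21.1 and 3.97 in W_Res, 3.53, 2.93 and 3.38 in PW_Con and 2.73, 10.7 and 28.4 in PW_Res. The resveratrol and control libraries of NQO1 overlapped at each age. In PW_Res its order followed the position score (0.38, -0.89 and -1.49), and with the score as a covariate the averaged value was 0.50 and missed both limits. It was 0.76 without PW_Res replicate 3 and 0.84 without W_Res replicate 2, and the standard was also missed without W_Con replicate 1, W_Res replicate 1, PW_Res replicate 2 or any PW_Con replicate.

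CYP2B6 stands for the CYP2B family, which PXR and CAR drive in liver. It was 7.50, 3.03 and 1.46 FPKM in W_Con, 13.1, 10.5 and 9.20 in PW_Con, 5.64, 47.4 and 8.31 in W_Res, and 9.65, 12.7 and 7.17 in PW_Res. The PW_Con libraries lay above all W_Con libraries, and W_Res replicate 2 lay far above the other 11 libraries. It rose over weaning in control litters by 1.43 ± 0.64 on the log2 scale, with adjusted p = 0.318 in limma. It also rose with maternal resveratrol at 21 days, by 1.72 ± 0.64, with adjusted p = 0.190 in limma.

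Both calls of CYP2B6 rested on few libraries. The weaning call was lost in 5 of 6 fits that left out 1 library, with values from 1.02 (without W_Con replicate 3) to 1.91. The fits that lost it left out W_Con replicate 2 or 3 or any PW_Con replicate. The weaning value also missed the P limit with the position score as a covariate (1.53), without a filter (1.43) and at a minimum of 5 FPKM (1.43). The resveratrol call was 0.84 without W_Res replicate 2 and 1.30 without W_Con replicate 3, and both missed the standard. In a fit with the smooth muscle score as a covariate, added after the data were seen, the resveratrol value was 0.43 and missed both limits in limma. The difference of the CYP2B6 weaning effect between litter sets was -1.87 ± 0.90, with adjusted p = 0.386 in limma, and met the standard in 3 of 12 fits that left out 1 library (W_Con replicate 1 or W_Res replicate 1 or 3). NR1I3 and CYP2B6 moved in opposite directions over weaning in control litters, at -1.39 and 1.43.

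CYP2W1, a P450 known mainly from fetal gut and colon tumours, was the only member past the standard over weaning in resveratrol litters. It was 2.88, 1.09 and 0.148 FPKM in W_Con, 1.34, 3.98 and 1.24 in PW_Con, 4.18, 7.63 and 31.0 in W_Res, and 9.18, 0.754 and 0.720 in PW_Res. The W_Res libraries lay above all W_Con libraries, and replicate 3 was the highest of the 12. The gene rose with resveratrol at 21 days by 2.42 ± 0.79 on the log2 scale, with adjusted p = 0.155 in limma. It fell over weaning in resveratrol litters by 1.85 ± 0.79, with adjusted p = 0.259 in limma. Averaged over both ages it rose with resveratrol by 1.25 ± 0.56, with adjusted p = 0.401 in limma.

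Without W_Res replicate 3 these 3 values of CYP2W1 were 1.67, -1.09 and 0.87, and none met the standard. The fall was also lost without PW_Res replicate 2 (-1.43) or PW_Res replicate 3 (-1.41). The averaged rise was lost in 7 of 12 such fits, with the lowest value without PW_Res replicate 1 (0.82). The other 6 left out W_Con replicate 2 or 3, W_Res replicate 2 or 3, or PW_Con replicate 1 or 3. The W_Res group also had the highest smooth muscle sums, and with that score as a covariate the 3 values were 2.04, -1.48 and 1.09, each over the P limit in limma. The difference between litter sets in CYP2W1 was -2.34 ± 1.12, with adjusted p = 0.382 in limma, and met the standard in 3 of 12 fits that left out 1 library (W_Con, W_Res or PW_Res replicate 1).

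No call was made for the other 3 xenobiotic P450 genes. The P450 groups are not sharply split, since CYP2D25 hydroxylates vitamin D in the pig, as does CYP2R1, which was placed with the genes of endogenous substrates. CYP2D25 was the most abundant of the 6. It was 15.9, 51.8 and 108 FPKM in W_Con, 45.2, 61.0 and 11.4 in PW_Con, 26.9, 34.1 and 24.1 in W_Res, and 46.6, 51.1 and 58.9 in PW_Res. The resveratrol groups did not overlap over weaning, and the limma value there was 0.87 ± 0.65 with adjusted p = 0.512. CYP2C42, of the CYP2C family, ranged from 1.91 to 18.4 FPKM, and its lowest adjusted p was that of an averaged weaning effect of -0.83 ± 0.41, with adjusted p = 0.296 in limma. CYP2F1, a P450 known from lung, ranged from 0.174 to 2.80 FPKM. All PW_Res libraries of CYP2F1 (0.411 to 0.467 FPKM) lay below all W_Res libraries (0.740 to 2.80 FPKM), and the limma value was -0.90 ± 0.31, under the P limit but inside the fold limit, with adjusted p = 0.187. It met the standard without W_Res replicate 1 (-1.21) and missed the P limit without W_Res replicate 2 (-0.64). With the smooth muscle score as a covariate that value was -0.48, over the P limit in limma.

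None of the 4 P450 genes with endogenous substrates passed the standard in any of the 7 comparisons. Of all genes 0.939% to 7.76% passed, so that the count was near the background. None of the 4 had P under 0.05 in limma, where 7.76% to 19.0% of all genes did. CYP51A1, the sterol demethylase of cholesterol synthesis, ranged from 18.8 to 70.0 FPKM. Its libraries were at 70.0, 43.2 and 40.5 FPKM in W_Con, 64.8, 51.7 and 32.2 in PW_Con, 41.5, 33.1 and 20.4 in W_Res and 37.2, 18.8 and 60.6 in PW_Res. The groups overlapped at each age and in each litter set, and the averaged resveratrol value was -0.56 ± 0.30, with adjusted p = 0.457 in limma. CYP26B1, which clears retinoic acid, ranged from 1.44 to 5.46 FPKM, and CYP2R1, a vitamin D 25-hydroxylase, from 0.320 to 3.10 FPKM. CYP2U1, a fatty acid hydroxylase, ranged from 0.518 to 1.97 FPKM. All PW_Res libraries of CYP2U1 (0.518 to 0.672 FPKM) lay below all W_Res libraries (1.02 to 1.97 FPKM), at -0.54 ± 0.26 with adjusted p = 0.296 in limma.

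EPHX1, the microsomal epoxide hydrolase that opens the epoxides P450 enzymes leave, had the largest standard errors of the 27 genes. It was 5.34, 11.9 and 106 FPKM in W_Con, 21.6, 26.2 and 7.64 in PW_Con, 65.6, 238 and 6.78 in W_Res, and 11.9, 123 and 176 in PW_Res. Each group except PW_Con held both a library under 12 FPKM and a library over 100 FPKM. The averaged resveratrol value was 1.59 ± 0.96 with adjusted p = 0.504 in limma, and with the position score as a covariate it was -0.03. With 1 library left out it ran from 1.03 (without W_Res replicate 2) to 2.26, and met the standard without W_Con replicate 3 (2.19), W_Res replicate 3 (2.26) or PW_Res replicate 1 (2.18). AKR1B1, aldose reductase, ranged from 15.0 to 43.4 FPKM, with no P under 0.05 in limma. Its largest resveratrol value was 0.67 ± 0.35 at 21 days, with adjusted p = 0.325 in limma.

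UGT2A3, the one glucuronosyltransferase among the members, gave the largest resveratrol effect of the 27 genes at 28 days and in the average of both ages. In control litters it was 11.5, 25.3 and 76.2 FPKM in W_Con and 10.2, 16.7 and 3.74 FPKM in PW_Con. In resveratrol litters it was 58.3, 90.1 and 70.5 FPKM in W_Res and 16.9, 104 and 109 FPKM in PW_Res. All PW_Res libraries lay above all PW_Con libraries, though by a narrow margin (16.9 against 16.7 FPKM), and at 21 days W_Con replicate 3 lay among the W_Res libraries. UGT2A3 rose with maternal resveratrol at 28 days by 2.59 ± 0.77 on the log2 scale, with adjusted p = 0.466 in limma. Averaged over both ages it rose by 1.95 ± 0.55, or 3.87-fold, with adjusted p = 0.234 in limma. At 21 days the value was 1.31 ± 0.77, with adjusted p = 0.386, and the difference between the ages was 1.29 ± 1.09, with adjusted p = 0.618 in limma. Over weaning it was -1.59 ± 0.77 in control litters, with adjusted p = 0.362, and -0.30 ± 0.77 in resveratrol litters, with adjusted p = 0.876 in limma.

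Both calls of UGT2A3 held in each fit that left out 1 library, from 2.07 to 3.46 at 28 days and from 1.64 to 2.38 for the average. UGT2A3 also ran with the position score, which was 1.13 to 1.63 in PW_Con and -1.49 to 0.38 in PW_Res. With the score as a covariate the averaged rise was 1.23 and kept the standard in limma. At 28 days it was then 1.46 and narrowly missed the P limit. The uncalled values of UGT2A3 moved more with 1 library left out. Over weaning in control litters they ran from -2.20 to -0.89 and met the standard without W_Con replicate 1 (-2.20) or PW_Con replicate 2 (-2.01), with -0.89 without W_Con replicate 3 and -1.06 without PW_Con replicate 3. With resveratrol at 21 days they ran from 0.69 (without W_Con replicate 1) to 2.00 (without W_Con replicate 3), and the latter and the value with the smooth muscle score as a covariate (2.45) met the standard. The difference ran from 0.59 (without W_Con replicate 3) to 2.15 (without PW_Res replicate 1), of which the latter met the standard.

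The 5 sulfotransferases gave no call in the weaning or resveratrol comparisons, where 0.939% to 4.94% of all genes passed the standard. SULT1B1, which sulfates phenols and thyroid hormones, was 9.64, 3.91 and 11.3 FPKM in W_Con, 5.84, 5.80 and 3.44 in PW_Con, 9.28, 9.02 and 36.8 in W_Res, and 10.9, 7.16 and 10.8 in PW_Res. All PW_Res libraries lay above all PW_Con libraries, and W_Res replicate 3 was the highest of the 12. Its averaged resveratrol value was 0.85 ± 0.35, under the P limit but inside the fold limit, with adjusted p = 0.378 in limma. It was 0.53 without W_Res replicate 3, over the P limit, and met the standard without W_Res replicate 2 (1.01) and with the smooth muscle score as a covariate (1.31).

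SULT1C4, a phenol sulfotransferase, was 4.69, 3.38 and 3.84 FPKM in W_Con, 6.77, 5.28 and 4.77 in PW_Con, 7.26, 9.12 and 4.86 in W_Res, and 5.51, 16.2 and 11.5 in PW_Res. The W_Con libraries lay below every library of the other 3 groups. Its averaged resveratrol value was 0.72 ± 0.23, also under the P limit alone, with adjusted p = 0.281 in limma, and with the position score as a covariate it was 0.56, narrowly over the P limit. At 28 days the value was 0.77 ± 0.33, under the P limit alone, with adjusted p = 0.616 in limma, and it ran from 0.46 (without PW_Res replicate 2) to 1.16 (without PW_Res replicate 1, past the standard). SULT1C2, its neighbour in the family, was 0.304, 0.593 and 0.567 FPKM in W_Con, 0.391, 0.425 and 0.194 in PW_Con, 0.649, 0.462 and 0.417 in W_Res, and 0.418, 2.41 and 0.725 in PW_Res, with no P under 0.05. In SULT1C2 the library PW_Res replicate 2 lay above the other 11, and without it the gene was under the 0.5 FPKM limit. SULT2B1, a cholesterol sulfotransferase, ranged from 0.221 to 1.22 FPKM, also with no P under 0.05 in limma.

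SULT4A1, a sulfotransferase best known from brain, was low throughout. It was 0.185, 0.333 and 0.137 FPKM in W_Con, 0.267, 0.299 and 1.13 in PW_Con, 1.08, 3.22 and 0.569 in W_Res, and 0.502, 0.152 and 0.202 in PW_Res. The W_Res libraries lay above all W_Con and all PW_Res libraries. With resveratrol at 21 days the value was 0.98 ± 0.34, under the P limit and just inside the fold limit, with adjusted p = 0.171 in limma. It met the standard without W_Con replicate 2 (1.05), W_Res replicate 1 (1.08) or W_Res replicate 3 (1.29), and was 0.36 with the smooth muscle score as a covariate, over the P limit. The weaning effect in resveratrol litters minus that in control litters was -1.23 ± 0.48, with adjusted p = 0.307 in limma, the one member past the standard in that comparison. It was -0.99 without PW_Con replicate 3 and -1.16 without PW_Res replicate 2, and missed the standard in both fits. Without W_Res replicate 2 the gene was under the 0.5 FPKM limit and was not tested. The smooth muscle sums were also highest in W_Res, and with that score as a covariate the value was -0.53 and missed both limits in limma.

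**Figure D3:**
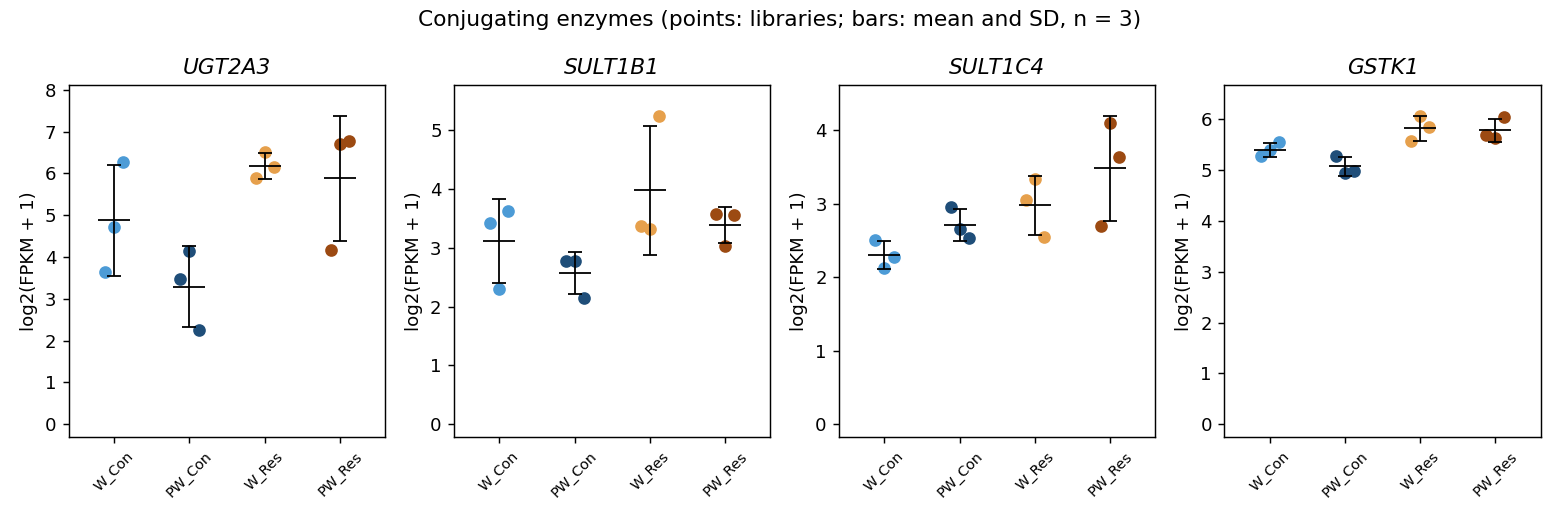
Levels of 4 conjugating enzymes on the log2(FPKM + 1) scale in the 4 groups, with a point per library and bars for the mean and SD of 3 libraries. The PW_Con points of UGT2A3, SULT1B1 and GSTK1 all lie below the PW_Res points, by 16.7 against 16.9 FPKM at the closest in UGT2A3.

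The 6 glutathione S-transferases held the 2 most abundant members, and none passed the standard. GSTO1, the omega class enzyme, was 161, 190 and 859 FPKM in W_Con, 307, 132 and 143 in PW_Con, 254, 208 and 86.5 in W_Res, and 124, 531 and 733 in PW_Res. The 3 highest libraries were W_Con replicate 3 and PW_Res replicates 2 and 3, and their groups overlapped with the others. Its value with resveratrol at 28 days was 1.01 ± 0.76, with adjusted p = 0.783 in limma, and -0.15 with the position score as a covariate. With 1 library left out it ran from 0.51 (without PW_Res replicate 3) to 1.79 (without PW_Res replicate 1), and the latter met the standard.

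GSTP1, the pi class enzyme of epithelia, was far steadier. It was 211, 227 and 197 FPKM in W_Con, 328, 338 and 402 in PW_Con, 255, 297 and 200 in W_Res, and 293, 197 and 307 in PW_Res. All PW_Con libraries lay above all libraries of the other 3 groups. The value over weaning in control litters was 0.74 ± 0.22 on the log2 scale, or 1.67-fold, under the P limit but inside the fold limit, with adjusted p = 0.158 in limma. In resveratrol litters it was 0.08 ± 0.22, with adjusted p = 0.889, and the difference between litter sets was -0.67 ± 0.31, with adjusted p = 0.378 in limma. With the position score as a covariate the control value was 0.79, still under the P limit in limma.

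GSTK1, the kappa class enzyme of mitochondria and peroxisomes, was higher in resveratrol litters at both ages. It was 37.5, 41.0 and 45.7 FPKM in W_Con against 46.5, 65.7 and 56.2 in W_Res, and 38.0, 29.8 and 30.6 in PW_Con against 50.6, 48.3 and 64.6 in PW_Res. All resveratrol libraries lay above all control libraries of their age. The averaged value was 0.57 ± 0.13 on the log2 scale, or 1.48-fold, with adjusted p = 0.168 in limma, the lowest unadjusted P of a member in any of the 7 comparisons. It ranged from 0.50 to 0.63 over the fits that left out 1 library, and was 0.46 with the position score as a covariate, still under the P limit in limma. At 21 days the value was 0.42 ± 0.19, with adjusted p = 0.265, and at 28 days 0.71 ± 0.19, with adjusted p = 0.442 in limma. GSTK1 was under the P limit but inside the fold limit in each of these. With 1 library left out the 21-day value ran from 0.30 to 0.55, with an unadjusted P of up to 0.17 in limma.

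GSTM3 of the mu class (2.81 to 13.8 FPKM), GSTA4, which clears the lipid aldehyde 4-hydroxynonenal (1.72 to 11.1 FPKM), and GSTZ1, which acts in tyrosine breakdown (2.27 to 3.74 FPKM), had no P under 0.05 in limma. The PW_Res libraries of GSTZ1 (3.01 to 3.39 FPKM) all lay above the PW_Con libraries (2.27 to 2.73 FPKM).

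**Figure D4:**
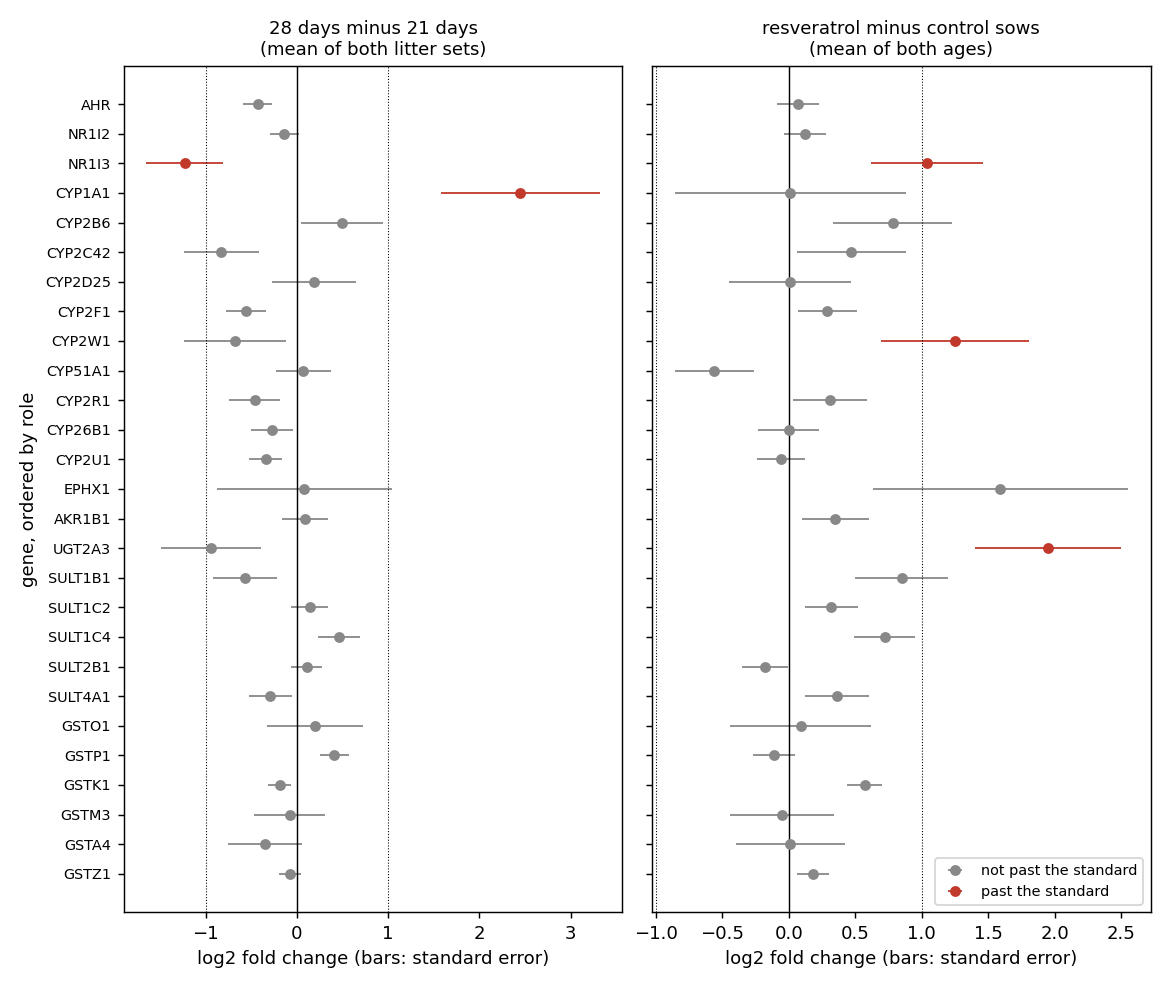
Log2 fold change of each of the 27 genes with its standard error, for the weaning effect averaged over both litter sets (left) and the maternal resveratrol effect averaged over both ages (right), with dotted lines at -1 and 1. CYP1A1 (2.45) and NR1I3 (-1.23) pass the standard on the left, and UGT2A3 (1.95), CYP2W1 (1.25) and NR1I3 (1.04) on the right.

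With maternal resveratrol 22 of the 27 genes had a fold change above 0 averaged over both ages, where 53.9% of all genes tested did. Among the 22, SULT4A1 (0.36) reached the 0.5 FPKM limit through W_Res and SULT1C2 (0.32) through PW_Res, where they are high. The filter favours that direction in these genes, and they are no support for it. The median of the 27 was 0.29, against 0.028 over all genes. Without W_Res replicate 2 it was 0.14, with 17 of 26 above 0, and without PW_Res replicate 2 it was 0.19, with 17 of 26. At 21 days 19 genes were above 0 (57.3% of all genes) and at 28 days 18 were (41.0% of all genes), both with a median of 0.29, against medians of 0.078 and -0.068 over all genes. The 19 include SULT4A1 (0.98) and the 18 include SULT1C2 (0.61), each let in by the group where it is high. The median at 21 days was 0.09, with 15 of 26 above 0, without W_Res replicate 2, and 0.18 without W_Con replicate 3. At that age all 5 smooth muscle markers were higher with resveratrol (4 past the standard, median 2.70), and with that score as a covariate the members' median was 0.19. At 28 days it was 0.17, with 15 of 27, without PW_Con replicate 3, and 0.45 without PW_Res replicate 3. All 6 xenobiotic P450 genes and all 3 receptors were among those above 0 in the average, and the lowest of the 6 was 0.01. Quantile normalization gave 19 of 27 above 0 and median-of-ratios rescaling 22. With the position score as a covariate 15 of 27 were above 0, with a median of 0.09, and at 28 days 13 were, with a median of -0.04. Over weaning 8 of the 27 were above 0 in control litters (48.4% of all genes), with a median of -0.21 against -0.014 over all genes, and 12 in resveratrol litters (34.7% of all genes), with a median of -0.12 against -0.154. Neither median was stable. In control litters it was -0.07, with 11 of 27 above 0, without PW_Con replicate 3. In resveratrol litters it turned to 0.07, with 16 of 26 above 0, without W_Res replicate 2, and to 0.04, with 14 of 27, under median-of-ratios rescaling. It was 0 without PW_Res replicate 1, and -0.21 and -0.26 without PW_Res replicates 2 and 3.

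Groups that did not overlap were about as frequent among the members as among all genes. Over weaning they were 6 of 27 in control litters (22.2%, against 24.9% of all genes) and 4 of 27 in resveratrol litters (14.8%, against 21.7%). With resveratrol they were 4 of 27 at 21 days (14.8%, against 21.0%) and 6 of 27 at 28 days (22.2%, against 17.2%). At 21 days the 4 were CYP2W1, SULT1C4, SULT4A1 and GSTK1, all higher with resveratrol. SULT4A1 reached the 0.5 FPKM limit through W_Res, where it is high, and is no support for that direction. It is also among the 4 over weaning in resveratrol litters, with all PW_Res libraries below all W_Res libraries, and is no support there either. At 28 days NR1I3, UGT2A3, SULT1B1, GSTK1 and GSTZ1 were higher and GSTP1 was lower.

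Several members ran along the position score, lower where distal markers were higher. Over the 12 libraries 6 of 27 correlations had an adjusted p under 0.05 in Pearson's r, all negative, and 5 of them in Spearman's rho as well (permutation tests with 100000 resamples, adjusted over the 27 relations). The libraries were permuted without regard to group, so that differences between groups enter these P-values. The weakest of the 6 had r = -0.71, and 1.37% of all 12886 genes tested had r at or below that value, against 22.2% of the members. That limit was taken from the members' own values, which fixed their share in advance, so that the 2 shares are no test. Of the members 22 (81.5%) had r below 0, against 47.0% of all genes. EPHX1 had r = -0.87 (P = 0.000440, adjusted p = 0.0119, permutation test) and rho = -0.78 (P = 0.00414, adjusted p = 0.0292, permutation test). UGT2A3 had r = -0.80 (P = 0.00183, adjusted p = 0.0169, permutation test) and rho = -0.89 (P = 0.000250, adjusted p = 0.00675, permutation test). Without the 2 libraries farthest from the median score, W_Res replicate 2 and W_Con replicate 3, r was -0.83 for EPHX1 and -0.84 for UGT2A3. Within groups, as deviations from the group means, r was -0.89 and -0.70.

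The other 4 were CYP2C42 (r = -0.80, P = 0.00188, and rho = -0.77, P = 0.00461, permutation tests), NR1I3 (r = -0.78, P = 0.00344, and rho = -0.78, P = 0.00425, permutation tests), CYP26B1 (r = -0.78, P = 0.00256, and rho = -0.64, P = 0.0304, permutation tests) and GSTK1 (r = -0.71, P = 0.0101, and rho = -0.76, P = 0.00540, permutation tests). The adjusted p of r was 0.0169, 0.0186, 0.0173 and 0.0457 in that order, and that of rho was 0.0292, 0.0292, 0.117 and 0.0292. Without the same 2 libraries r was -0.57, -0.51, -0.55 and -0.76, and within groups it was -0.79, -0.74, -0.86 and -0.57. In CYP2C42, NR1I3 and CYP26B1 the relation rested in good part on those 2 libraries. The cause of the spread in the score between libraries of 1 group was not tested.

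**Figure D5:**
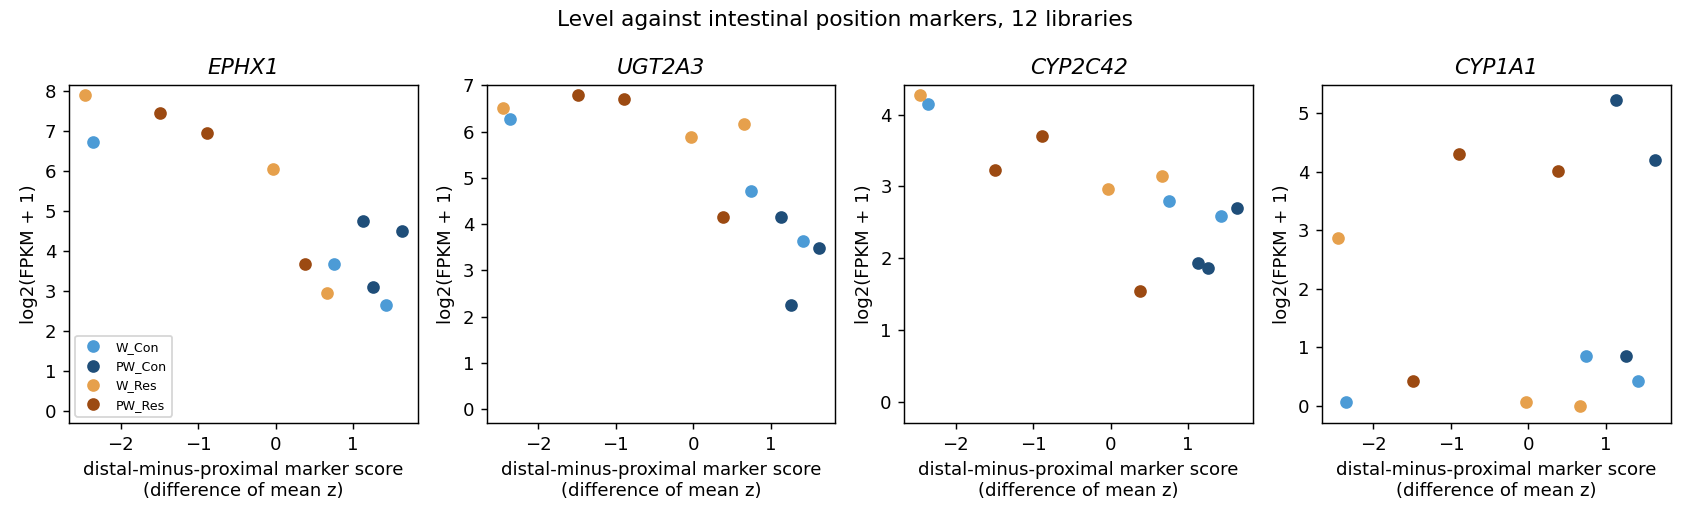
Level of EPHX1, UGT2A3, CYP2C42 and CYP1A1, as log2(FPKM + 1), against the distal-minus-proximal marker score in the 12 libraries, coloured by group. The first 3 fall from left to right (r = -0.87, -0.80 and -0.80), and CYP1A1 does not (r = 0.15).

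Genes around the conjugation reactions were read from lists outside the naming rule. Of the glutathione synthesis genes 3 of 4 were tested, and 1 of them, GCLC, the catalytic subunit of the rate-limiting ligase, passed the standard. GCLC was 8.47, 6.68 and 4.49 FPKM in PW_Con and 9.00, 19.8 and 30.0 FPKM in PW_Res, so that all PW_Res libraries were higher. It rose with resveratrol at 28 days by 1.34 ± 0.42, with adjusted p = 0.470 in limma, where 1.55% of all genes passed the standard. The position score was 1.13 to 1.63 in PW_Con and 0.38, -0.89 and -1.49 in PW_Res, in the order of the GCLC levels, and with the score as a covariate the value was 0.70 and missed both limits. Without PW_Res replicate 3 it was 0.97, inside the fold limit.

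Of the genes that supply conjugation cofactors 3 of 7 were tested. None passed the standard over weaning or with resveratrol, where 0.939% to 4.94% of all genes did. PAPSS2, which makes the sulfate donor PAPS, passed in the difference between litter sets, where 7.76% of all genes did. Its value was 2.36 ± 1.03, with adjusted p = 0.343 in limma. UGDH, which makes the glucuronic acid donor, was 14.0, 8.0 and 16.2 FPKM in PW_Con and 10.5, 32.8 and 56.2 FPKM in PW_Res, at 1.09 ± 0.50 with adjusted p = 0.644 in limma. UGDH also had the order of the position score in PW_Res, and its value was 0.52 with the score as a covariate. PAPSS2 was 1.96 with the position score and 0.59 with the smooth muscle score as a covariate, and missed the P limit in both. Its call was lost in 9 of 12 fits that left out 1 library, and held only without W_Con replicate 1 (3.01), W_Res replicate 1 (2.91) or PW_Res replicate 1 (3.03).

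Of the efflux pumps for drugs and conjugates 5 of 6 were tested. ABCC3 was 0.67 ± 0.21 over weaning averaged over both litter sets, with adjusted p = 0.153 in limma. ABCB1 was -0.92 ± 0.39 with resveratrol at 21 days, with adjusted p = 0.237 in limma. Both were under the P limit but inside the fold limit. ABCG2, which exports sulfate conjugates, was 33.1, 39.5 and 40.5 FPKM in W_Con and 17.0, 21.1 and 5.73 FPKM in PW_Con, with no overlap. It fell over weaning in control litters by 1.47 ± 0.38, with adjusted p = 0.122 in limma. There 3.10% of all genes passed the standard, and the villus markers had a median of -0.57. In resveratrol litters ABCG2 was at -0.09 ± 0.38, with adjusted p = 0.929 in limma. The difference between litter sets was 1.38 ± 0.54, with adjusted p = 0.306 in limma, where 7.76% of all genes passed. Without PW_Con replicate 3 the fall was -0.95 and the difference 0.86, both inside the fold limit, and the difference also missed the P limit without W_Res replicate 1 (1.27) or PW_Res replicate 1 (1.17). ABCC2, which exports glucuronides, was 11.7, 8.56 and 0.777 FPKM in PW_Con and 13.8, 13.3 and 17.3 FPKM in PW_Res, with no overlap. It rose with resveratrol at 28 days by 1.39 ± 0.63, with adjusted p = 0.639 in limma, where 1.55% of all genes passed the standard. Without PW_Con replicate 3 the value was 0.51, the call was also lost without any 1 of the PW_Res libraries, and with the position score as a covariate it was 1.03, over the P limit.

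Of 20 other phase I and II enzymes 13 were tested. FDXR, ferredoxin reductase, which passes electrons to mitochondrial P450 enzymes, had the lowest adjusted p of the list over weaning in control litters. It was 4.68, 5.21 and 3.37 FPKM in W_Con, 8.68, 7.89 and 10.9 in PW_Con, 7.96, 6.13 and 5.92 in W_Res, and 6.46, 8.17 and 8.57 in PW_Res. All PW_Con libraries lay above all W_Con libraries. The study lists FDXR among the genes raised in weaned piglets, and it reports a significant rise by qRT-PCR as well. The group means here were 4.42 FPKM in W_Con and 9.14 FPKM in PW_Con. The 1 added to FPKM before the log makes the fold change smaller at such levels. On that scale the control value was 0.91 ± 0.20, with adjusted p = 0.0950 in limma, under the P limit and inside the fold limit. It ranged from 0.76 to 1.02 over the 6 fits that left out 1 control library, and was 0.84 with the position score as a covariate, under the P limit in each. In resveratrol litters FDXR was 0.19 ± 0.20, with adjusted p = 0.659, and the difference between litter sets was -0.72 ± 0.29, with adjusted p = 0.311 in limma.

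Past the standard over weaning in control litters were 3 of the 13, all lower, where 3.10% of all genes passed and 4 of 11 villus markers were past it and lower. NAT1, an arylamine acetyltransferase, was 22.1, 15.4 and 25.6 FPKM in W_Con and 25.8, 0.434 and 0.805 FPKM in PW_Con, so that PW_Con replicate 1 lay above all W_Con libraries. Its value was -2.39 ± 1.02, with adjusted p = 0.295 in limma. The NAT1 call was lost in 5 of 6 fits that left out 1 library, all but the one without PW_Con replicate 1 (-3.75), with -1.63 without PW_Con replicate 2. EPHX2, the soluble epoxide hydrolase, fell by 1.15 ± 0.51, with adjusted p = 0.317 in limma, and W_Con replicate 3 (6.53 FPKM) lay among the PW_Con libraries (4.54 to 7.47 FPKM). FMO5, a flavin monooxygenase, was 10.5, 14.0 and 10.9 FPKM in W_Con and 2.90, 7.24 and 6.94 FPKM in PW_Con, with no overlap, at -1.0 ± 0.43 and adjusted p = 0.301 in limma. The EPHX2 call was lost without W_Con replicate 1 (-0.87) or 2 (-0.98) or PW_Con replicate 1 (-1.05) or 3 (-1.05). The FMO5 call was lost without any W_Con replicate or without PW_Con replicate 1 (-0.65).

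In the average of both litter sets and in that of both ages none of the 13 passed, where 1.42% and 0.939% of all genes did, and in the other comparisons 1 to 3 passed. Over weaning in resveratrol litters FMO1 fell by 1.16, where 4.94% of all genes passed, and it was -0.71 without W_Res replicate 2 and -0.83 without PW_Res replicate 1. With resveratrol at 21 days EPHX2 fell by 1.41, where 4.77% of all genes passed, and lost the P limit without W_Con replicate 1 or 2 or W_Res replicate 3. At 28 days FMO5 rose by 1.23 and FMO1 fell by 1.04, where 1.55% of all genes passed. FMO5 was 0.88 there without PW_Con replicate 1 and 0.86 without PW_Res replicate 3, and FMO1 was -0.79 without PW_Con replicate 3, -0.71 without PW_Res replicate 1 and over the P limit without PW_Res replicate 2. In the difference of the weaning effect between litter sets EPHX2 (2.22) and FMO5 (1.76) were above 0 and FMO1 (-1.73) below 0, where 7.76% of all genes passed, and all 3 kept the standard in each fit that left out 1 library. With the smooth muscle score as a covariate FMO5 (1.43) and FMO1 (-1.41) missed the P limit there, and EPHX2 was 3.55. None of the genes in these lists had an adjusted p under 0.05 in limma.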

How the data were processed

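Jejunum RNA of 12 piglets (4 groups of 3) was sequenced as paired-end poly(A) libraries. The deposited table gives FPKM for 41264 loci, made by the authors with TopHat, StringTie and Ballgown according to the study's methods. The submitters' processing notes name HISAT2 2.0, Bowtie 0.12.2 and StringTie 1.3.0 with the pig build Sscrofa10.2 (and mm8), and which of these made the table is not settled. No scaling beyond FPKM was stated. The table holds no counts, so that read depth behind each value is unknown here, and no interval from depth was given. The 17650 unnamed loci (42.8%) did not enter, and FPKM was summed over loci of the same name. Of 6232 names that are Ensembl identifiers 2139 had a symbol, which was used for marker and pathway lists only.

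The test was limma 3.58.1 in R 4.3.3 (lmFit, contrasts.fit, eBayes with a mean-variance trend) on log2(FPKM + 1), over 12886 gene names with a mean of at least 0.5 FPKM, 1 fit for the 4 groups, and Benjamini-Hochberg adjustment over all names. The 4 differences between pairs of groups, their 2 averages and the difference of the weaning effect between litter sets were tested. A fold change on this scale understates that of low genes. The litter of each library is not given. The study's methods describe 1 male piglet from each of 6 litters at both ages, so that control libraries of an age may come from separate litters and those of the 2 ages may be littermates. P-values measure the spread between these piglets only. The filter can pass a gene through the group where it is high.

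The members and lists were chosen with earlier results of these data known. Named were the receptors, EPHX1, CYP1A genes, UGT2 and SULT1 genes, the 3 most abundant members of each role, and members past the standard. The other members were named after their values were seen. Of the other lists, genes past the standard were named, and TIPARP, PTGES3, FDXR, UGDH, ABCC3 and ABCB1 after their values were seen. The correlation with the position score, tested by permutation, was likewise added later.

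In a simulation 200 of 12886 genes were shifted by 2 on the log2 scale, drawn from those with a mean log2(FPKM + 1) above 2. Of them 193 (96.5%) met the standard in the control weaning comparison and 182 (91%) in the difference between litter sets. Members below that level, AHR and SULT4A1 among them, are not covered by these shares. Nor need the shares hold for members with large standard errors, such as EPHX1 (1.36) and CYP1A1 (1.23) over weaning in control litters. As alternatives, each library was left out in turn, the pseudocount was set to 0.1, the minimum to 0 or 5 FPKM, and columns were quantile-normalized or rescaled by median of ratios. The others were no trend in eBayes, the replicate number as a block, fits on 6 libraries, 1 locus (the highest) per name, and the position score as a covariate. Leaving out W_Res replicates 2 and 3 together, a smooth muscle score as a covariate, and the covariate and left-out fits of the other lists, were added after the data were seen.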

Additional observations from a re-analysis of the deposited data

Results flagged for a closer look

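SULT4A1 is given here because the test of its weaning effect between litter sets met the study's standard, though not after adjustment. The effect in resveratrol litters minus that in control litters was -1.23 on the log2(FPKM + 1) scale, with adjusted p = 0.307 in limma and an unadjusted P under the limit. It was -0.91 in resveratrol litters (adjusted p = 0.218) and 0.32 in control litters (adjusted p = 0.728). The group means were 0.218 FPKM in W_Con, 0.566 in PW_Con, 1.62 in W_Res and 0.285 in PW_Res. The gene reached the limit of 0.5 FPKM through W_Res, where it is high, and that group is part of the difference. Without W_Res replicate 2 it fell under the limit and was not tested. With the smooth muscle score as a covariate the difference was -0.53 and missed both limits. The share of all genes past the standard in this comparison was 7.76%.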

How the results depend on the processing

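The number of members with an adjusted p under 0.05 was 0 under each alternative run in all 7 comparisons, and 0 to 0 when 1 library was left out. The number past the standard was small and moved. Over weaning in control litters (3) it was 1 without a filter, 1 at a minimum of 5 FPKM and 1 with the position score, and 0 to 3 with 1 library left out. In resveratrol litters (1) it was 2 at a pseudocount of 0.1, with the position score and with the smooth muscle score, 0 without a filter, with either rescaling, with 6 libraries in the fit and without W_Res replicates 2 and 3, and 1 to 4 with 1 library left out. For the averaged weaning effect (2) it was 1 at a minimum of 5 FPKM and with the position score, 5 with the smooth muscle score, and 1 to 3 with 1 library left out. With resveratrol at 21 days (2) it was 1 with 6 libraries, 0 without W_Res replicates 2 and 3, and 2 to 4 with 1 library left out. At 28 days (1) it was 2 at a pseudocount of 0.1 and with 6 libraries, 0 with the position score, and 1 to 5 with 1 library left out. For the averaged resveratrol effect (3) it was 1 at a minimum of 5 FPKM and without W_Res replicates 2 and 3, and 1 to 4 with 1 library left out. For the difference between litter sets (1) it was 2 at a pseudocount of 0.1, 0 at a minimum of 5 FPKM, without W_Res replicates 2 and 3 and with the smooth muscle score, and 0 to 4 with 1 library left out. The minimum of 5 FPKM left 17 of the 27 members in the test. Other causes were not tested.

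Direction turned in 7 of 851 values of single genes. NR1I3 over weaning in resveratrol litters was 0.29 without W_Res replicates 2 and 3. With the position score EPHX1 was -0.63 at 28 days and -0.03 in the averaged resveratrol effect, and GSTO1 was -0.15 at 28 days. In the difference between litter sets CYP1A1 was -2.32 to 0.21 with 1 library left out, above 0 without PW_Res replicate 3, and 1.58 with the smooth muscle score, and UGT2A3 was 0.00 with the latter.

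No clear pairing by replicate number was seen. The correlation of deviations from the group means lay between -0.26 and 0.30 over 18 pairs with the same number, and 4 were above 0.1. With 3 libraries in a group and no litter given, these values cannot tell whether libraries with the same number are littermates. With the replicate number as a block, 2 members passed the standard with resveratrol at 28 days in place of 1, NR1I3 (1.20) being added. CYP1A1 (1.93) passed over weaning in resveratrol litters and CYP2W1 (-1.85) did not, so that the count there stayed at 1. UGT2A3 (-1.59) was added over weaning in control litters, and CYP2W1 (1.25) was lost from the averaged resveratrol effect. Of 36 comparisons of a library with another group, its own number correlated best in 12.

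The median fold change of all genes was -0.154 over weaning in resveratrol litters, -0.103 for the averaged weaning effect and -0.154 for the difference between litter sets. Median-of-ratios rescaling and quantile normalization moved the share of higher genes among all genes called from 20.0% to 41.4% and 44.6% over weaning in resveratrol litters, and from 51.9% to 69.4% and 62.5% for the average. It moved from 69.9% to 59.2% and 54.4% with resveratrol at 21 days, from 42.0% to 57.6% and 52.0% at 28 days, and from 23.3% to 42.8% and 45.7% for the difference between litter sets. Genes under about 1 FPKM, SULT1C2, SULT2B1, SULT4A1, CYP2F1 and (in W_Con) CYP1A1 among them, are compressed by the pseudocount.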

Other observations

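In 7 further genes the pig annotation gives a symbol that the naming rule would take, but the table lists them by Ensembl identifier, so that they stand outside the 27. Their means over the 12 libraries were 3.28 FPKM for GSTO2, 2.03 for CYP27A1, 1.39 for CYP39A1, 0.775 for GSTCD, 0.615 for CYP7B1, 0.402 for AKR1D1 and 0.0149 for CYP26A1, and the first 5 of these were tested. GSTO2, the second omega class glutathione transferase, averaged 3.98 FPKM in W_Con and 6.74 in PW_Con against 1.13 in W_Res and 1.28 in PW_Res. It fell with maternal resveratrol by 1.23 ± 0.53 on the log2 scale averaged over both ages, with adjusted p = 0.383 in limma. In that comparison 0.939% of all genes passed the standard. There 7 of 8 distal markers were lower and 6 of 6 proximal markers higher, and their part in the GSTO2 value was not tested. CYP27A1, the mitochondrial sterol 27-hydroxylase, averaged 3.63 FPKM in W_Res and 1.38 to 1.73 FPKM in the other groups. Its weaning effect in resveratrol litters minus that in control litters was -1.06 ± 0.45, with adjusted p = 0.331 in limma, where 7.76% of all genes passed the standard. W_Res also had the highest smooth muscle sums (644 to 3855 FPKM), and their part in this value was not tested. CYP39A1, another oxysterol hydroxylase, was -0.65 ± 0.24 over weaning averaged over both litter sets, with adjusted p = 0.198 in limma.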
